A study of Mus musculus with 3 samples.

Results

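The genes described here buffer and move the energy of the muscle cell. They are the cytosolic creatine kinases Ckm and Ckb, the mitochondrial creatine kinases Ckmt1 and Ckmt2, the oxygen-binding protein myoglobin (Mb), the AMP deaminase Ampd1, the adenylate kinase Ak1, the creatine-synthesis enzyme Gatm and the creatine transporter Slc6a8. They were chosen by name, and the 9 symbols are all present among the 23238 symbols of the count files. A filter of 1 CPM (counts scaled to library size) in at least 1 library kept 13169 genes and 8 of the 9, with Ckmt1 left out, and these 8 passed it in each library.

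All RNA was taken from c2c12, a mouse myoblast line whose cells fuse into myotubes when serum is lowered. Cells in all groups received the same myogenic induction medium with horse serum for 2 days, and the groups are named by substrate. The methods also describe washing the hydrogels and keeping them overnight in growth medium with fetal bovine serum before seeding. The substrates were tissue culture plates (TCP), a hydrogel of methacrylated gelatin (GelMA, 15%) and the same hydrogel with 1% poly(sodium 4-styrenesulfonate), a sulfonated polymer used to mimic heparin (GelMA-PSS). Each substrate has 1 library of 1 cell line, so the differences below could not be checked against replicates and carry no p-values. Differences between substrates and between single libraries cannot be told apart. The comparison of GelMA with TCP shows how far the control libraries lie apart, and GelMA-PSS was set against each of them.

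Creatine kinases move a phosphate group between ATP and creatine, which lets a muscle cell hold a reserve of high-energy phosphate close to its myofibrils. Creatine is made from arginine and glycine by Gatm and then Gamt, or is taken up from outside the cell through Slc6a8. When ATP use outruns this reserve, adenylate kinase turns pairs of ADP into ATP and AMP, and AMP deaminase removes the AMP. Muscle cells shift from Ckb toward Ckm as they differentiate, and Ckm and Mb are classical genes of the differentiated fibre.

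The control regions of Ckm and Mb are textbook targets of the myogenic factors MyoD and myogenin, which bind the E-box CANNTG, and of MEF2. The bases before a RefSeq start site are shown for Ckm, Ckb, Mb and Gatm, as the genes of the cytosolic pair, of myoglobin and of creatine synthesis. Each stretch ends at the start site or where an annotated exon begins before it. That of Ckm thus stops at 19411024, short of its start at 19411094, and that of Gatm at 122611304, short of its start at 122611277. Mb has further RefSeq start sites that are not shown. No window was used for Slc6a8 and Ampd1, the members past 1.5-fold below. The sequences are on GRCm38 and are written 5′ to 3′ on the strand of the gene. Capitals mark an E-box or, in Ckb alone, a match to the MEF2 site.
Ckm, chr7:19410844-19411024, plus strand: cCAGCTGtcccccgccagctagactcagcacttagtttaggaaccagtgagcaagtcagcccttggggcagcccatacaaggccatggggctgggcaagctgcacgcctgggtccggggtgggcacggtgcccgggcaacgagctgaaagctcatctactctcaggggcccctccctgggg
Ckb, chr12:111672339-111672588, minus strand: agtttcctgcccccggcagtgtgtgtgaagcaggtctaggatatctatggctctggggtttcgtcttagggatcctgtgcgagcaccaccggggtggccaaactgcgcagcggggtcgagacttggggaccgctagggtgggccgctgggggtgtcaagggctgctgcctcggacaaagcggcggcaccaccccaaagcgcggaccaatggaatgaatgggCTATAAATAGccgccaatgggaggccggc
Mb, chr15:77022788-77023037, minus strand: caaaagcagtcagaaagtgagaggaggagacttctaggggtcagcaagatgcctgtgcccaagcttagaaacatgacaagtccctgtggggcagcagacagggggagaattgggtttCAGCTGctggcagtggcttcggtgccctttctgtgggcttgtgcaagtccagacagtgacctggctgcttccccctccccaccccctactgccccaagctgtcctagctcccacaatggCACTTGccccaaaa
Gatm, chr2:122611304-122611527, minus strand: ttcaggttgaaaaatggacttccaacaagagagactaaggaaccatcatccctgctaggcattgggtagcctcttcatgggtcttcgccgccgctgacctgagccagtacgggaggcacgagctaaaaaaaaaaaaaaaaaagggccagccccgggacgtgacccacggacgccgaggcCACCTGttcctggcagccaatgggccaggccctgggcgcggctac

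The E-box of the Ckm sequence, CAGCTG, begins 249 bases before the start site at 19411094. Mb carries the same 6 letters 133 bases before the start at 77022787 and a second E-box, CACTTG, 14 bases before it. The E-box of Gatm, CACCTG, begins 71 bases before its start. No E-box occurs in the window of Ckb, whose MEF2 match begins 29 bases before the start and holds the letters TATAAA of a TATA box. Both strands were searched in windows from 250 bases before to 50 bases after each start. RefSeq windows were found for 7 of the 9 genes, 13 windows in all. An E-box lay in 11 of the 13 windows, and 72.3% of 32851 such windows of 300 bases hold one. CAGCTG lay in a window of Ckm, Ckmt1, Ckmt2, Mb and Ak1 and in none of Ckb and Gatm. Ckmt1, Mb and Ak1 have several windows and so more places for a match. CAGCTG occurs in 16.3% of all windows, the MEF2 site in 3.19% and the CArG box, the site of serum response factor, in 1.63%. Apart from Ckb, a MEF2 match was found in 1 window of Ak1, and no window of the 7 genes held a CArG box. These matches describe letters and not binding.

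Total counts per library were 119799095 (TCP), 87071144 (GelMA) and 192171443 (GelMA-PSS), and 3 counts correspond to a CPM of 0.0246, 0.0330 and 0.0166. Of 6 markers of myoblasts and muscle, all 6 were above 1 CPM, with summed CPM of 6993, 5835 and 6441. Adipocyte and endothelial markers stayed below 1 CPM (0 of 5 and 0 of 3), with Lep at 0 in every library. Of the osteoblast markers 1 of 4 passed 1 CPM (Bglap, with Ibsp at 0), and of the neuronal ones 1 of 3 (Snap25). Leukocyte markers reached a summed CPM of only 2.55, 2.35 and 1.77 (2 of 3 above 1 CPM), and smooth muscle markers 224, 201 and 199, nearly all from Smtn (2 of 3 above 1 CPM). Cardiac markers summed to 459, 145 and 51.0 (2 of 3 above 1 CPM), nearly all from Myh6. Differences in GelMA-PSS also ran with transcript length over all genes, with a Spearman's rho across 13053 genes of -0.66 against GelMA and -0.50 against TCP. For this reason the GelMA-PSS differences of the 8 genes are also given after subtraction of a smooth fit on transcript length and GC content, and called corrected. TPM below stands for counts per kilobase of transcript scaled to equal library totals, in place of CPM scaled with TMM factors.

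On the log2(CPM + 1) scale, none of the 8 tested genes passed 2-fold in any comparison. Under other settings, Ampd1 passed it in GelMA against TCP with a smaller pseudocount, and Slc6a8 passed it in GelMA-PSS against both controls as TPM. As TPM, the median of all tested genes was itself -0.36 against GelMA and -0.31 against TCP. Over all tested genes as CPM, 1.77% were higher and 2.33% lower past 2-fold in GelMA-PSS than in GelMA, and 3.72% were higher and 3.13% lower than in TCP. Between GelMA and TCP these shares were 0.706% and 0.296%. At 1.5-fold, 0 of 8 were higher in any comparison, against a background of 11.0% for GelMA-PSS over GelMA, 13.2% over TCP and 3.5% for GelMA over TCP. Past 1.5-fold on the lower side, Slc6a8 was called in GelMA-PSS against GelMA (1 of 8, background 10.8%), Ampd1 and Slc6a8 were called against TCP (2 of 8, background 11.5%), and Ampd1 was called in GelMA against TCP (1 of 8, background 2.12%). The median difference of the 8 genes in log2(CPM + 1) was -0.01 in GelMA-PSS against GelMA, with 0.03 over all genes, and -0.54 against TCP, with 0.04 over all genes. In GelMA against TCP it was -0.24, with -0.01 over all genes. The energy-buffering genes thus differed from gene to gene by moderate amounts. Below TCP lay 6 of 8 in GelMA-PSS (47.2% of all genes) and 7 of 8 in GelMA (51.7%). Ckmt2 went the other way in both hydrogels, and Gatm in GelMA-PSS.

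**Figure D1:**
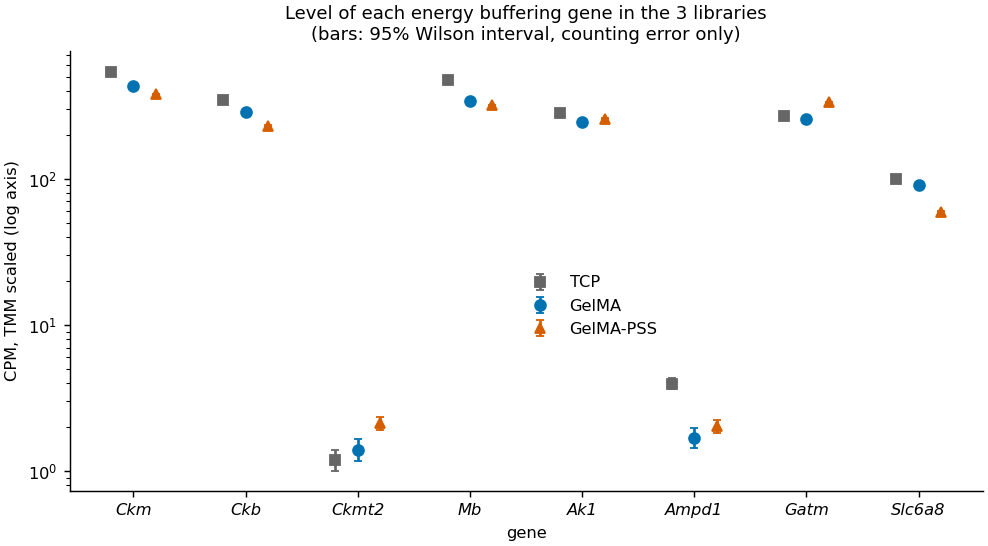
TMM-scaled CPM on a log axis for the 8 tested genes in the TCP (squares), GelMA (circles) and GelMA-PSS (triangles) libraries, 1 library each, with bars for the 95% Wilson interval from counting error. Ckm, Ckb, Mb and Slc6a8 step down from TCP to GelMA-PSS, Ampd1 is at 3.97 in TCP and at 1.69 and 2.03 in the hydrogels, and Ckmt2 and Gatm are highest in GelMA-PSS (Gatm not as TPM, where its differences are -0.07 and -0.09).

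Ckm, the muscle creatine kinase, stood at 542 CPM in TCP, 430 in GelMA and 380 in GelMA-PSS, from 66037, 39103 and 68789 counts. Its level was highest in TCP and lowest in GelMA-PSS, and the counting intervals of the 3 libraries did not overlap. The ratio of GelMA-PSS to TCP was 0.700 (95% exact interval from counting error, 0.693 to 0.708), that to GelMA 0.882 (0.872 to 0.894), and that of GelMA to TCP 0.793 (0.784 to 0.803). On the log2(CPM + 1) scale these were differences of -0.51, -0.18 and -0.33. Which of the last pair was larger depended on the scaling, as they were -0.33 and -0.30 with library totals alone and -0.65 and -0.28 as TPM. In bulk RNA, a smaller share of differentiated cells and less Ckm RNA per cell cannot be told apart. The annotation holds Ckm on chr7:19404776-19422841, plus strand, with a transcript of 2742 bases and 8 exons, but the RefSeq gene is shorter and leaves 1415 bases of the same exons. The corrected difference was -0.54 against TCP and -0.21 against GelMA with the longer length, and -0.78 and -0.51 with the shorter.

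Ckb, the brain-type cytosolic creatine kinase of myoblasts and many other cells, gave 345, 285 and 230 CPM in the same order of libraries. Like Ckm, it was highest in TCP, lowest in GelMA-PSS, and without overlap of the counting intervals. GelMA-PSS stood at 0.667 of TCP (0.658 to 0.676) and at 0.808 of GelMA (0.796 to 0.821), and GelMA at 0.826 of TCP (0.813 to 0.839). The differences were -0.58 against TCP, -0.31 against GelMA and -0.28 between the controls. Ckb lies on chr12:111669361-111672338, minus strand, and its transcript is short, at 1472 bases. Genes in the same decile of transcript length had a median of 0.33 in GelMA-PSS against TCP and 0.40 against GelMA, and Ckb sat at percentiles 3.68 and 4.67 among them. After correction the differences were -0.76 and -0.55.

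As counts, the balance between both cytosolic forms changed little across substrates. The ratio of Ckm to Ckb counts was 1.57 in TCP (1.55 to 1.59), 1.51 in GelMA (1.49 to 1.53) and 1.65 in GelMA-PSS (1.63 to 1.67). A ratio inside a library does not depend on its scaling factor. Per kilobase of transcript, Ckm made up 45.8% of Ckm plus Ckb in TCP (exact interval, 45.5% to 46.1%), 44.8% in GelMA (44.4% to 45.2%) and 47.0% in GelMA-PSS (46.7% to 47.3%). The share spanned little more than 2 percentage points and was highest in GelMA-PSS, where both genes had their lowest CPM. Its absolute value depends on the transcript taken for Ckm and came to 62.1%, 61.1% and 63.2% with the RefSeq gene, in the same order of libraries. As counts, the muscle form was thus not a smaller part of the pair in GelMA-PSS. A fixed length cannot change this order of the libraries, so the lengths add no further evidence for it. After correction, Ckb lay at -0.76 against TCP and -0.55 against GelMA. Ckm lay at -0.54 and -0.21, or at -0.78 and -0.51 with the RefSeq length, so that against TCP the order of the pair depended on the length.

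The mitochondrial creatine kinases were scarce. Ckmt1, the ubiquitous form, had 0 counts in TCP, 5 in GelMA and 0 in GelMA-PSS, so that its CPM lay below 0.0246 in TCP and 0.0166 in GelMA-PSS at a floor of 3 counts, and stood at 0.0550 in GelMA. Ckmt2, the form of striated muscle, gave 1.18 CPM in TCP (1.00 to 1.39), 1.39 in GelMA (1.16 to 1.65) and 2.13 in GelMA-PSS (1.92 to 2.35). GelMA-PSS was above both controls, while the controls overlapped within counting error (ratio 1.17, 0.916 to 1.4996). It stood at 1.80 times TCP (1.48 to 2.19) and 1.53 times GelMA (1.25 to 1.89), from only 144, 126 and 385 counts. Its differences were 0.52 against TCP and 0.39 against GelMA. They were 0.24 and 0.02 after correction, since genes of its length had medians of 0.33 and 0.40. The gene lies on chr13:91853387-91876885, minus strand, with a transcript of 1486 bases. As CPM, Ckmt2 was thus higher in GelMA-PSS than in TCP, whereas Ckm and Ckb were lower.

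Mb, the haem protein that stores and carries oxygen in muscle, stood at 471 CPM in TCP, 343 in GelMA and 320 in GelMA-PSS. As CPM, TCP was well above both hydrogels, which lay close together. GelMA-PSS was at 0.679 of TCP (0.671 to 0.687) and at 0.932 of GelMA (0.919 to 0.945), and GelMA at 0.728 of TCP (0.718 to 0.738). As differences these were -0.56, -0.10 and -0.46. Mb has the shortest transcript of the 9 genes (1104 bases, 3 exons, chr15:77015487-77050670, minus strand). Genes of its length decile had medians of 0.51 against TCP and 0.58 against GelMA, and among them Mb lay at percentiles 3.68 and 9.88. Its corrected differences were -0.91 and -0.53, with -0.40 in GelMA against TCP. As TPM, GelMA-PSS against GelMA came to -0.57 and GelMA against TCP to -0.41 (all tested genes, -0.36 and 0.04). Which of these gaps was larger thus depended on the processing. Per kilobase of transcript Mb was the most abundant of the 9 in each library, with 427, 311 and 290 CPM per kilobase against 234, 194 and 156 for Ckb. The distance to the next gene depends on the transcript taken for Ckm. With the RefSeq length of 1415 bases, Ckm would stand above Ckb and closer to Mb. Other globins (Cygb, Ngb and Adgb, 0 of 3 tested) summed to no more than 0.594 CPM in any library.

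The ratio of Mb to Ckm, chosen after the values were seen, was 0.869 in TCP (0.859 to 0.879), 0.797 in GelMA (0.785 to 0.809) and 0.842 in GelMA-PSS (0.833 to 0.851). As counts, these genes of the differentiated fibre therefore kept a similar proportion, in a range narrower than that of either level. After correction, Mb lay at -0.91 against TCP and -0.53 against GelMA. Ckm lay at -0.54 and -0.21, or at -0.78 and -0.51 with the RefSeq length, so that the similarity depended on the length used. Against markers of differentiation, in pairs also chosen after the values were seen, Ckm did not keep a fixed ratio. Its counts were 0.0533 of those of embryonic myosin heavy chain, Myh3, in TCP, 0.0677 in GelMA and 0.125 in GelMA-PSS. Against myogenin (Myog) the ratio went the other way, with 0.493, 0.481 and 0.366. In GelMA-PSS, Ckm thus lay less far below TCP than Myh3 did and further below it than Myog did. Transcript length enters these count ratios. After correction, Myh3 lay at -1.41 against TCP and -0.61 against GelMA, and Myog at -0.32 and -0.09. Ckm stayed between them with either of its lengths, but nearer to Myh3 than before correction.

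**Figure D2:**
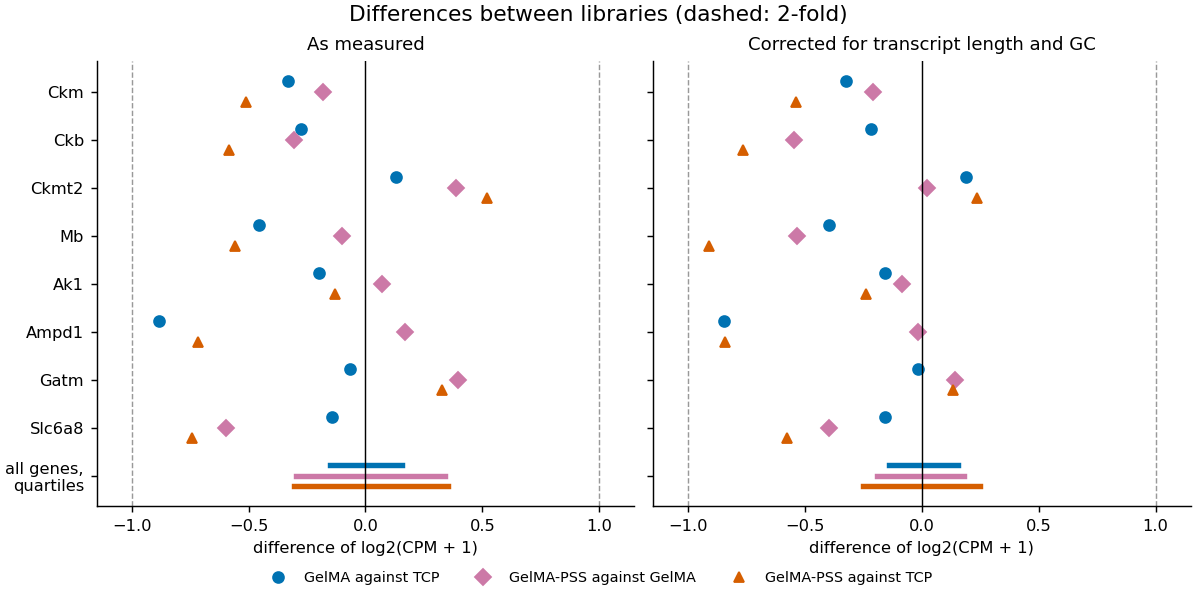
Differences in log2(CPM + 1) of the 8 genes for the 3 comparisons, as measured (left) and after correction for transcript length and GC content (right), with bars at the foot for the quartiles of all tested genes and dashed lines at 2-fold. Ckb and Mb move further left after correction, to -0.76 and -0.91 against TCP, Ckmt2 moves toward 0, and Ampd1 and Ak1 in GelMA-PSS against GelMA (diamonds) cross 0 to -0.02 and -0.09.

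Ak1, the main cytosolic adenylate kinase of muscle, stood at 281 CPM in TCP, 245 in GelMA and 257 in GelMA-PSS. The 3 libraries lay close together, with TCP highest. GelMA-PSS was at 0.914 of TCP (0.902 to 0.927) and at 1.05 times GelMA (1.03 to 1.07), with differences of -0.13 and 0.07. The sign of the second was not stable, as it was -0.09 after correction, -0.07 with library totals alone and -0.39 as TPM. The gene lies on chr2:32621758-32635058, plus strand. Because Ak1 lay less far below TCP than Ckm did, the ratio of Ak1 to Ckm was 0.519 in TCP, 0.569 in GelMA and 0.678 in GelMA-PSS.

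Ampd1, the AMP deaminase of skeletal muscle, gave 3.97 CPM in TCP (3.63 to 4.34), 1.69 in GelMA (1.45 to 1.98) and 2.03 in GelMA-PSS (1.83 to 2.24). TCP stood apart from both hydrogels, whose intervals overlapped. GelMA was at 0.427 of TCP (0.354 to 0.513), a difference of -0.88 that lay at percentile 0.478 of all tested genes. GelMA-PSS was at 0.511 of TCP (0.445 to 0.586), a difference of -0.71, and at 1.20 times GelMA (0.988 to 1.45), a difference of 0.17 that was -0.02 after correction and -0.12 as TPM. The counts were low, at 483, 154 and 367, and the added 1 CPM reduces the difference. With 0.1 CPM in its place, GelMA against TCP came to -1.18, past 2-fold. The gene lies on chr3:103074014-103099720, plus strand, with 16 exons. Ampd1 was thus the only gene of the 8 past 1.5-fold between the controls.

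Gatm, which catalyses the first step of creatine synthesis, stood at 267 CPM in TCP, 255 in GelMA and 335 in GelMA-PSS. GelMA-PSS was the highest library, and the controls differed from each other by a ratio of 0.954 (0.938 to 0.970). GelMA-PSS was at 1.31 times GelMA (1.30 to 1.34) and 1.25 times TCP (1.24 to 1.27), with differences of 0.39 and 0.33. They came to 0.14 and 0.13 after correction and turned to -0.07 and -0.09 as TPM, a scaling that moved the median of all genes by -0.39 and -0.35. Gatm lies on chr2:122594467-122611303, minus strand, with a transcript of 2389 bases.

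Slc6a8, the sodium- and chloride-dependent transporter that takes up creatine, went the other way. It stood at 100.2 CPM in TCP, 90.5 in GelMA and 59.5 in GelMA-PSS, so that the controls lay close and GelMA-PSS was well below both. GelMA-PSS was at 0.594 of TCP (0.579 to 0.610) and 0.658 of GelMA (0.639 to 0.677), whereas GelMA was at 0.904 of TCP (0.879 to 0.929). The differences were -0.74, -0.60 and -0.14, or -1.13 against TCP and -1.04 against GelMA as TPM, both past 2-fold. As TPM, the median of all tested genes lay at -0.31 against TCP and -0.36 against GelMA. Its transcript is the longest of the 9 (3964 bases, chrX:73673150-73682502, plus strand). Genes of its length had medians of -0.07 against both controls, and Slc6a8 lay at percentiles 5.45 and 5.60 among them. After correction the differences were -0.58 against TCP and -0.40 against GelMA.

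The genes of creatine synthesis and uptake therefore differed in opposite directions in GelMA-PSS, although Gatm did not as TPM. The ratio of Gatm to Slc6a8 counts, chosen after the values were seen, was 2.67 in TCP (2.61 to 2.72), 2.81 in GelMA (2.74 to 2.89) and 5.63 in GelMA-PSS (5.51 to 5.75). The controls were close, and GelMA-PSS stood apart. With the corrected differences the ratio was higher in GelMA-PSS by 1.45-fold over GelMA and 1.63-fold over TCP, less than from the counts. Gamt, which completes creatine synthesis, was also highest in GelMA-PSS, with 111, 85.3 and 158 CPM and differences of 0.88 against GelMA and 0.51 against TCP, or 0.47 and 0.17 after correction. Slc6a6, the related transporter of taurine, shared the direction of Slc6a8, with 846, 766 and 436 CPM and differences of -0.81 and -0.96, or -0.38 and -0.64 after correction. Of the 5 genes listed for creatine synthesis and transport, 4 were tested and 0 passed 2-fold. In GelMA-PSS, 2 lay above both controls (1 as TPM, 45.3% of all genes as CPM) and 2 below (39.3%). Slc16a12 was not tested, with no more than 2 counts in a library.

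By order of level, Ckm, Ckb, Mb and Slc6a8 ran from TCP over GelMA to GelMA-PSS, an order shared by 21.2% of all tested genes. Ampd1 and Ak1 ran from TCP over GelMA-PSS to GelMA (7.81% of all). Ckmt2 ran from GelMA-PSS over GelMA to TCP (22.5%), and Gatm from GelMA-PSS over TCP to GelMA (22.7%), though not as TPM. In GelMA-PSS, 4 of 8 were below both controls, with 39.3% of all genes, and 2 of 8 above both, Ckmt2 and, except as TPM, Gatm, with 45.3%. These comparisons share the GelMA-PSS library. After correction 6 of 8 were below both (background 40.7%), with Ampd1 and Ak1 added, and the same 2 were above both (40.8%). No gene passed 2-fold on the lower side after correction, with backgrounds of 1.2% against GelMA and 2.41% against TCP. Past 1.5-fold 0 of 8 were lower than in GelMA (background 5.5%), and Ckb, Mb and Ampd1 were lower than in TCP (3 of 8, background 9.29%).

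**Figure D3:**
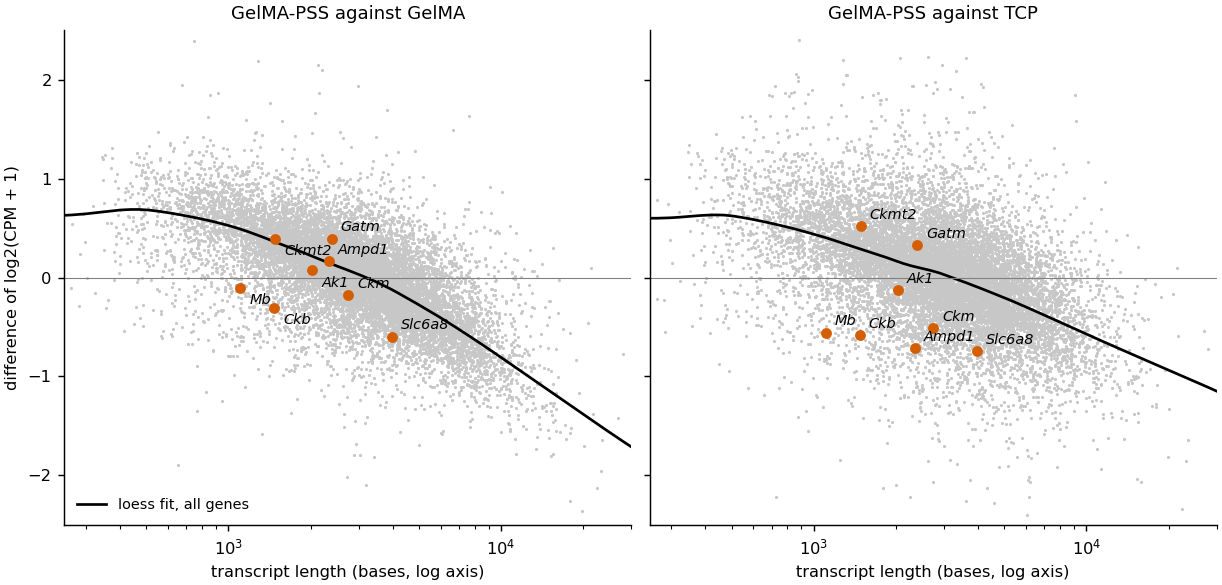
Difference in log2(CPM + 1) against transcript length on a log axis, for GelMA-PSS against GelMA (left) and against TCP (right); grey points are genes with a known length, the line is a loess fit on them, and 146 genes outside the axes are not drawn. Mb, Ckb and Ckm lie below the line in both panels, Gatm and Ckmt2 lie on or above it, and Ampd1 lies on the line at left and below it at right.

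The genes most like Ckm and Ckb were sought among 9265 genes with a mean of 10 CPM or more, by the distance in the differences GelMA against TCP and GelMA-PSS against GelMA. Over these 3 libraries genes among the nearest to Ckm were Mtus1 (distance 0.0159 in log2), Ranbp9, Oxct1 and Ubl3. Those nearest to Ckb were Cry2 (0.0184), Lrch1, Uso1, Vps37b and Safb. Oxct1, the enzyme that activates ketone bodies for oxidation, stood at 145, 115 and 99.97 CPM. Ckb came 195th to Ckm, at a distance of 0.139, and Mb 220th. With 3 libraries many genes share any such pattern.

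Around these genes, 8 other adenylate kinases were listed and 4 tested. GelMA-PSS gave the highest CPM for all 4 (for 3 of 4 as TPM or with library totals alone), and for 45.3% of all genes. Ak4, a mitochondrial form, was at 8.02 CPM in TCP, 19.9 in GelMA and 33.4 in GelMA-PSS, with differences of 1.93 against TCP, 0.72 against GelMA and 1.21 between the controls. Of the 4 tested, it alone was past 2-fold, in GelMA-PSS over TCP (background 3.72%) and GelMA over TCP (0.706%). Its corrected differences were 2.04, 0.85 and 1.20. Nuclear Ak6 (19.7, 18.9 and 35.2 CPM) had a difference of 0.87 against GelMA, or 0.31 after correction. The median of the list was 0.66 against GelMA and 0.73 against TCP, or 0.21 and 0.30 after correction. Ak5, Ak7 and Ak8 fell under the filter, and Ak9 is not analysed here.

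Of the enzymes that handle AMP, IMP and adenosine, 9 of 13 tested lay above both controls in GelMA-PSS (45.3% of all genes) and 3 below (39.3%). As TPM only 4 of 13 lay above GelMA and 8 above TCP. All tested genes had TPM medians of -0.36 against GelMA and -0.31 against TCP. The list had medians of 0.35 against GelMA and 0.48 against TCP, or -0.11 and 0.18 as TPM. After correction the medians were 0.08 and 0.25. Nt5e, the ecto-enzyme that makes adenosine from AMP, was the only gene of the 13 past 2-fold (background 3.72%). It stood at 9.84, 16.5 and 21.9 CPM, with a difference of 1.08 against TCP (1.16 after correction). The others named were Nt5c (23.7, 24.3 and 42.2 CPM) and the purine salvage enzymes Aprt (54.7, 60.1 and 100.2) and Hprt (92.4, 84.7 and 151), with differences between 0.70 and 0.86 against either control. After correction these lay between 0.23 and 0.46. The AMP deaminases of other tissues exceeded Ampd1 in CPM per kilobase. Ampd2 was at 53.7, 53.2 and 38.2 CPM and Ampd3 at 53.5, 58.4 and 53.1, so that neither showed the contrast of Ampd1 between TCP and GelMA.

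Of 10 subunits and upstream partners of the AMP-activated kinase AMPK, 10 were tested, and their medians were near 0 (-0.04 against GelMA and -0.05 against TCP, or -0.49 and -0.45 as TPM). All tested genes had TPM medians of -0.36 and -0.31. Prkaa2, the catalytic subunit abundant in muscle, was lower past 2-fold against both controls, with 18.4 CPM in TCP, 15.2 in GelMA and 6.48 in GelMA-PSS. Its differences were -1.37 against TCP and -1.12 against GelMA, and -1.04 and -0.63 after correction, the latter not past 2-fold, its transcript being 7969 bases long. Prkag3, the gamma subunit of fast muscle, was past 2-fold against TCP only, at 175, 107 and 85.7 CPM (-1.02, or -1.05 after correction). Lower past 2-fold were thus 1 of 10 against GelMA (background 2.33%) and 2 of 10 against TCP (3.13%). The other catalytic subunit, Prkaa1, was level at 68.4, 75.9 and 68.6 CPM.

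The 7 carriers and channels that exchange ATP, ADP and phosphate across mitochondrial membranes were all above both controls in GelMA-PSS (45.3% of all genes). Their medians were 0.36 against GelMA and 0.28 against TCP, with none past 2-fold. Slc25a4, the muscle ADP/ATP carrier, was at 358, 334 and 470 CPM, Vdac1 at 327, 316 and 405, and Vdac3 at 168, 153 and 225. The medians of the list were -0.10 and -0.09 after correction, so its direction depended on the correction. As TPM they were -0.11 and -0.14, with -0.36 and -0.31 over all tested genes. Among 7 tested of 9 regulators of oxidative genes, 2 were above (45.3% of all genes) and 4 below both controls (39.3%). Their medians were -0.13 against GelMA and -0.11 against TCP, -0.18 and -0.01 after correction, and -0.55 and -0.24 as TPM. Ppargc1b alone was lower past 2-fold against GelMA (background 2.33%), at 9.77, 11.5 and 5.01 CPM (-1.06), but not after correction (-0.93). Ppargc1a was at 6.77, 6.60 and 4.33 CPM, and the mitochondrial transcription factor Tfam at 43.7, 43.2 and 58.5.

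The M-band, where a part of the muscle creatine kinase is anchored, was represented by Myom1 (236, 174 and 102 CPM), Myom2 (1147, 865 and 550) and Myom3 (428, 304 and 158). All 3 were lower past 2-fold in GelMA-PSS against TCP (background 3.13%), of which Myom3 alone after correction (2.41%), and 0 against GelMA (2.33%). The medians were -1.20 against TCP and -0.77 against GelMA, or -0.93 and -0.41 after correction. Against TCP each of the 3 lay further below 0 than Ckm, at -0.51. Of 13 markers of differentiation, 7 were below both controls in GelMA-PSS (39.3% of all genes) and 2 above (45.3%). Their medians were -0.08 against GelMA and -0.41 against TCP, or -0.38 and -0.80 after correction. Mef2c (289, 181 and 81.0 CPM), Myh3 (10182, 6355 and 3037) and Myh1 (1783, 1065 and 511) were lower past 2-fold against both (backgrounds 2.33% against GelMA and 3.13% against TCP). After correction they came to -0.85, -0.61 and -0.62 against GelMA, no longer past it, and to -1.61, -1.41 and -1.48 against TCP. The summed CPM of the 13 markers was 31979 in TCP, 23358 in GelMA and 19716 in GelMA-PSS, in the same order as Ckm, Ckb and Mb. Without Myh3 and Myh1 it was 20014, 15938 and 16168, so that the order of the hydrogels rested on these genes. The part of this difference in the values of Ckm, Ckb and Mb was not tested.

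**Figure D4:**
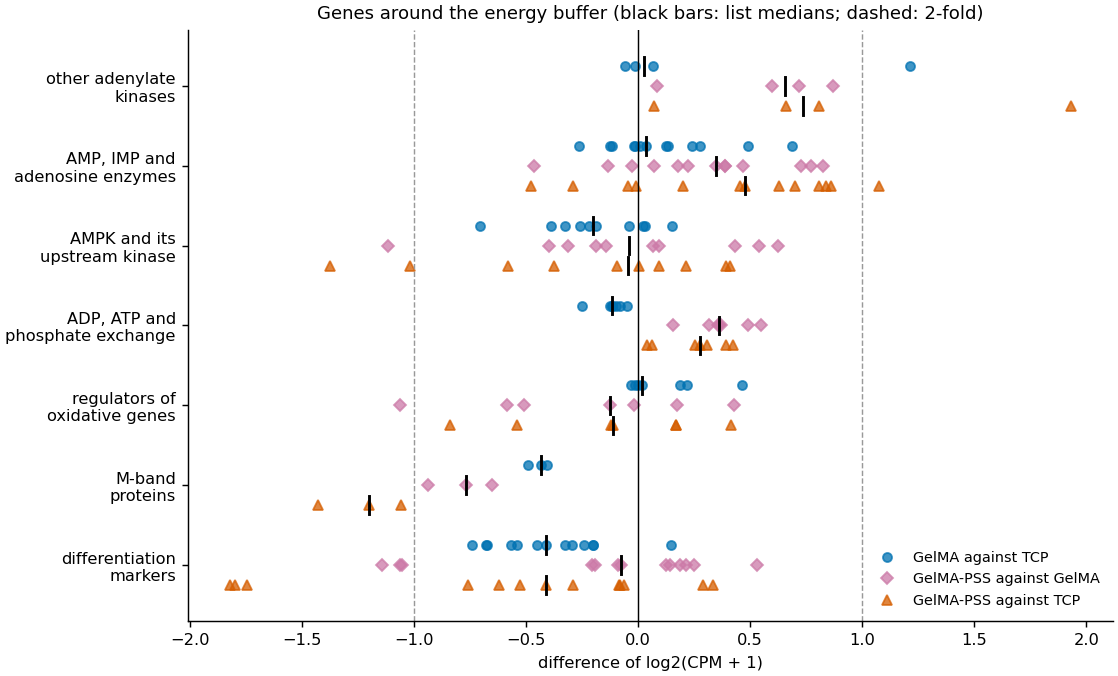
Differences in log2(CPM + 1) of the tested genes of 7 lists around the energy buffer, with black bars at the list medians and dashed lines at 2-fold. The carriers of ADP, ATP and phosphate lie right of 0 in GelMA-PSS before correction (medians 0.36 and 0.28, but -0.10 and -0.09 after it). As TPM their medians are -0.11 and -0.14, with -0.36 and -0.31 over all tested genes. The M-band proteins lie left of 0 in each comparison.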

How the data were processed

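RNA-seq of c2c12 cells on TCP, GelMA and GelMA-PSS was analysed, with a single library for each substrate. What the authors deposited are raw, unnormalized counts by gene symbol. The methods name strand-specific paired-end sequencing with a TruSeq kit and FPKM values, which were not used here, and the labels name a SMARTER kit. The submitters' processing notes list TopHat, edgeR, mm10 and hg19 with no role. The counting tool and annotation are not given in the sources used here. Of 23282 lines, those sharing 1 of 35 repeated symbols were summed. No line had a blank symbol. Counts were scaled to CPM with TMM factors (1.02, 1.04 and 0.943 for TCP, GelMA and GelMA-PSS, edgeR 4.0.16, R 4.3.3). Genes that reached 1 CPM in any library were kept, differences were taken on log2(CPM + 1), which understates low genes, and called at 2-fold, the threshold of the methods. Wilson (CPM) and exact Clopper-Pearson (ratios, shares) intervals at 95% cover counting error only and would be too narrow if mates were counted separately, which is not known. Lengths and positions came from GENCODE vM21 (GRCm38), with 22197 symbols matched directly, 649 through older symbols and 392 not at all, and start sites and promoter windows from RefSeq on GRCm38. The correction subtracted loess fits (span 0.3, statsmodels 0.14.6) on length and then GC content. The calls and the correction were run on simulated counts with changes well past 2-fold, a set length slope and no variation between cultures. Those runs check the code and cannot vouch for calls made from 1 library per substrate. Gene members and lists were chosen with earlier results of these data known. Up to 3 genes of a list are named, those past 2-fold against both controls or else with the largest difference from the mean of the controls; Nt5e, Prkag3, Ampd2, Ampd3 and Prkaa1 were added after their values were seen. Results for some genes that this rule or the search for similar patterns would name are not reported here.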

Additional observations from a re-analysis of the deposited data

How the results depend on the processing

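The count of 0 of 8 genes past 2-fold held on the higher side under every alternative run. On the lower side, it became 1 with TPM in GelMA-PSS against GelMA and 1 against TCP (Slc6a8, -1.04 and -1.13), and 1 with a pseudocount of 0.1 in GelMA against TCP (Ampd1, -1.18). At 1.5-fold the lower counts were 1 in GelMA-PSS against GelMA, 2 against TCP and 1 in GelMA against TCP. At 1.5-fold with the correction, chosen after seeing the data, they were 0, 3 and 1. With the RefSeq length, Ckm would also pass 1.5-fold against TCP (-0.78). Of 147 values of the 24 differences under alternatives, 7 changed sign, all in Ampd1, Ak1 and Gatm as given above. Library totals alone moved the median of all genes by -0.13 in GelMA-PSS against GelMA and TPM by -0.39. With TPM it came to -0.36 against GelMA and -0.31 against TCP, which enters the calls of Slc6a8. The share of Ckm was 61.1%, 60.2% and 62.3% in TCP, GelMA and GelMA-PSS from raw counts and from coding length, and 62.1%, 61.1% and 63.2% with the RefSeq gene of Ckm, a length chosen after seeing the data. The medians of the lists under other scalings were also added after seeing the data. No paired analysis was possible because each substrate has 1 library, and for the same reason no library could be left out. Depth limits Ckmt1, Ckmt2 and Ampd1, which rest on the fewest counts.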

Other observations

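Further ratios to Ckm, chosen after the values were seen, were taken within each library. Ckm counts were 0.0876 of those of skeletal actin, Acta1, in TCP, 0.0800 in GelMA and 0.0751 in GelMA-PSS, and 0.164, 0.150 and 0.120 of those of desmin, Des. These ratios of counts carry the differences with transcript length, and after correction Ckm and Acta1 lay at -0.54 and -0.52 in GelMA-PSS against TCP and at -0.21 and -0.38 against GelMA. With the RefSeq length, Ckm lay at -0.78 and -0.51, so that the order of the Acta1 ratio depended on the length used. The ratio of Mb to Ckb was 1.37 in TCP, 1.20 in GelMA and 1.39 in GelMA-PSS.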
